A study of Mus musculus with 18 samples.

Results

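Amino acid transporters of the plasma membrane were followed through the response of mouse erythroblasts, the nucleated precursors of red blood cells, to tunicamycin. The 7 genes were chosen by name, with earlier results of these data known: Slc3a2, Slc7a5, Slc7a11, Slc7a1, Slc38a2, Slc1a5 and Slc1a4. Counts of them set beside all genes are thus a description. They make up 7 of the 20683 genes of the count table, with 21 of its 58476 feature lines (5′ leader, coding sequence and 3′ UTR of each gene) and 21 of the 9025 deposited harringtonine positions. The question set by the study was which mRNAs are translated when eIF2 is phosphorylated, and tunicamycin was its means of inducing that phosphorylation.

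Tunicamycin, an inhibitor of the first step of N-linked glycosylation, was given at 2.5 ug/ml for 1.5 h, and the other cells were left untreated. All 6 groups of 3 libraries came from cultured fetal liver erythroblasts of strain FVB/n x C57BL/6 and genotype Trp53 -/-, so the untreated cells share the Trp53 -/- genotype. Dexamethasone, erythropoietin and stem cell factor were in the Stempro medium of all cultures. Each treatment had a group for total RNA, a group for ribosome footprints after cycloheximide, which halts elongating ribosomes (5 min at 100 ug/ml), and a group for footprints after harringtonine, which holds ribosomes near start sites (2 ug/ml). The labels do not say whether the 3 libraries of a group came from separate cultures or animals, so each p measures the spread between libraries, which may be technical.

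Cells take up amino acids through carriers of several families. Slc3a2 encodes CD98 heavy chain (4F2hc), a single-pass glycoprotein that carries light chains to the cell surface. Its light chains include Slc7a5 (LAT1), which exchanges leucine and other large neutral amino acids for intracellular glutamine, and Slc7a11 (xCT), which imports cystine in exchange for glutamate and so feeds glutathione synthesis. Slc7a1 (CAT-1) carries arginine and lysine without a heavy chain. Slc38a2 (SNAT2) is a sodium-coupled carrier of small neutral amino acids, Slc1a5 (ASCT2) exchanges glutamine and other neutral amino acids, and Slc1a4 (ASCT1) exchanges serine, alanine and threonine. When eIF2 is phosphorylated, most mRNAs are initiated less often while that of the transcription factor Atf4 is translated more, and ATF4 binds C/EBP-ATF response elements near transporter genes, in other cell types. Red cell precursors draw on this supply for globin synthesis.

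Library totals, in mega reads (M), for RNA were 14.5 M to 43.5 M under tunicamycin and 12.9 M to 48.99 M in untreated cells, and coding footprints 4.53 M to 5.09 M under tunicamycin and 6.42 M to 6.65 M in untreated cells. Harringtonine reads, over the positions the authors kept, came to 0.559 M to 0.648 M under tunicamycin and 0.447 M to 0.524 M in untreated cells. The cell type label was checked with 15 erythroid genes, all of which were above 5 CPM of RNA (reads scaled to the library total) and summed to 7449 to 7819 CPM under tunicamycin and 7439 to 7860 CPM in untreated cells. Lists for hepatocytes, lymphocytes, endothelium and stroma, macrophages, and neutrophils with monocytes had 0 markers at 5 CPM or more. Megakaryocyte markers summed to 94.4 to 104 CPM under tunicamycin and 113 to 119 CPM in untreated cells, nearly all from Gp5, with Vwf and Ppbp at 0. Mast cell markers summed to 194 to 282 CPM under tunicamycin and 190 to 269 CPM in untreated cells, most of it from Ms4a2. The part of these cells in the results was not tested.

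To show promoter DNA of the transporters, RefSeq promoter windows (GRCm38.p6, 250 bases before to 50 bases after a transcript start) were searched for TGATGNAA, the core of C/EBP-ATF response elements, on either strand. Windows were found for 5 of the 7 genes, all but Slc7a5 and Slc1a5. The letters occur in 1304 of all 32851 windows of 300 bases, which is 3.97%, and in 2 of the 6 windows of the 5 genes. The windows of Slc7a11 and Slc1a4 hold them. The other sequences belong to Slc3a2 and Slc38a2, whose leader footprints rose under tunicamycin, and hold no match; this says only that these letters are not in those windows. Each sequence runs 5′ to 3′ along the gene over 150 bases, from 120 bases before the RefSeq start, with the matches in capitals.
Slc7a11 (chr3:50443584-50443733, minus strand): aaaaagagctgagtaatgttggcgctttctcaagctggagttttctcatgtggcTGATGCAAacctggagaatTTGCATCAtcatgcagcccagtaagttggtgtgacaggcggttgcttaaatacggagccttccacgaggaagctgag
Slc1a4 (chr11:20332684-20332833, minus strand): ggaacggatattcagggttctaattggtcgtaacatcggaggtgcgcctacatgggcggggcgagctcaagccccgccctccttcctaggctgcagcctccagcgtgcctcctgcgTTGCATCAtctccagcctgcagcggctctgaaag
Slc3a2 (chr19:8713868-8714017, minus strand): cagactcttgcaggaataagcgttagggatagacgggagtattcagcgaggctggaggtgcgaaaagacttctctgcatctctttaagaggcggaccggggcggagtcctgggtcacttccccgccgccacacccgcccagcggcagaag
Slc38a2 (chr15:96699699-96699848, minus strand): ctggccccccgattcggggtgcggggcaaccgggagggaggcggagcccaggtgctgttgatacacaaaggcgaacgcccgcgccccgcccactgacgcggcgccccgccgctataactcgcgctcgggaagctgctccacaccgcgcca
In Slc7a11 the matches are TGATGCAA from base -66 to -59 and its reverse form TTGCATCA from -47 to -40, counting the start base as 0. In Slc1a4 the match TTGCATCA lies across the start, from -4 to 3. A match is a description of the letters and not a measured binding site.

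Slc7a11, the cystine importer and the gene with 2 matches, was barely detected in these cells. It had 0, 0 and 2 RNA reads under tunicamycin, against 0, 2 and 0 in untreated cells. No footprint lay on its leader, coding sequence or 3′ UTR in any of the 6 cycloheximide libraries, which allows up to 0.590 to 0.662 CPM of coding footprints under tunicamycin and 0.451 to 0.468 CPM in untreated cells (a floor of 3 counts per library, for counting error only). It had no harringtonine position and was not tested. The gene lies at chr3:50364936-50499087. The other 6 genes were read in every RNA and cycloheximide library, and each of the 6 passed the filter on low counts in the tests of RNA, coding footprints and leaders.

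To ask whether transporter mRNA changed within 1.5 h, RNA was compared between 3 tunicamycin and 3 untreated libraries with edgeR's quasi-likelihood test over 10643 genes, with an adjusted p under 0.05 as the threshold. Levels are TMM-scaled CPM, and changes are log2 fold changes, tunicamycin over untreated, each with its standard error (SE). None of the 6 tested transporters passed, against a background of 0.15% of all genes (16 genes, all higher), while 1324 genes had an unadjusted p under 0.05. The 6 had a median change of 0.15, against -0.005 over all genes tested. In bulk RNA, fewer cells of a type and less RNA per cell cannot be told apart.

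Slc3a2, the heavy chain, lies at chr19:8706882-8723369. Its RNA was 280, 353 and 356 CPM in tunicamycin libraries 1 to 3, against 233, 282 and 262 CPM in untreated libraries 1 to 3. The lowest tunicamycin library lay just below the highest untreated library, so the groups overlapped, but each tunicamycin library was above the untreated library of the same number. The change was 0.35 ± 0.10 (SE, adjusted p = 0.251, edgeR, n = 3 each). Among the changes of all genes tested it stood at percentile 98.2.

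The amino acid carrier Slc38a2 (chr15:96687392-96699728) had 237, 219 and 236 CPM of RNA under tunicamycin, against 185, 165 and 211 CPM in untreated cells. All 3 tunicamycin libraries were above all 3 untreated libraries, but the share of all genes with groups apart was not counted. Its change was 0.31 ± 0.08 (adjusted p = 0.244, edgeR), at percentile 97.4. The RNA libraries of the same number deviated together, so the replicate number was also fitted as a block. In that fit both Slc3a2 (0.35, adjusted p = 0.0161) and Slc38a2 (0.31, adjusted p = 0.0261) passed, 2 of 6, against 2.66% of all genes higher (283 of 10643) and 1.19% lower (127 genes). Without a filter on low counts both also passed, and without tunicamycin RNA library 1 Slc3a2 passed (adjusted p = 0.0307).

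The other 4 transporters showed smaller differences, and none passed with or without the block. With the block Slc7a1 missed the threshold narrowly (adjusted p = 0.0535, edgeR), and Slc1a4 had 0.0998. Slc7a1, the arginine carrier at chr5:148327410-148399904, had 307, 262 and 251 CPM of RNA under tunicamycin, against 273, 232 and 224 CPM in untreated cells (0.17 ± 0.09, adjusted p = 0.484, edgeR). Slc7a5, the leucine carrier at chr8:121881146-121907686, had 499, 435 and 410 CPM under tunicamycin, against 484, 441 and 441 CPM in untreated cells (-0.03 ± 0.08, adjusted p = 0.926, edgeR). In each of these genes the ranges of the groups overlapped, and Slc7a1 was higher in the tunicamycin library of each same-numbered pair. Slc1a4 (chr11:20302180-20332713) had 52.9, 47.9 and 47.3 CPM under tunicamycin, against 49.5, 42.8 and 41.6 CPM in untreated cells, and its change was 0.14 ± 0.08 (adjusted p = 0.529, edgeR). Slc1a5, the glutamine exchanger at chr7:16781334-16798274, had 204, 196 and 193 CPM under tunicamycin, against 223, 218 and 187 CPM in untreated cells. Its change of -0.09 ± 0.07 has a 95% interval of -0.25 to 0.07. The groups overlapped for Slc1a4 and Slc1a5 too, with Slc1a4 higher under tunicamycin in each same-numbered pair. The coordinates are those of RefSeq genes on GRCm38.p6, in which no other gene overlaps any of the 7.

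**Figure D1:**
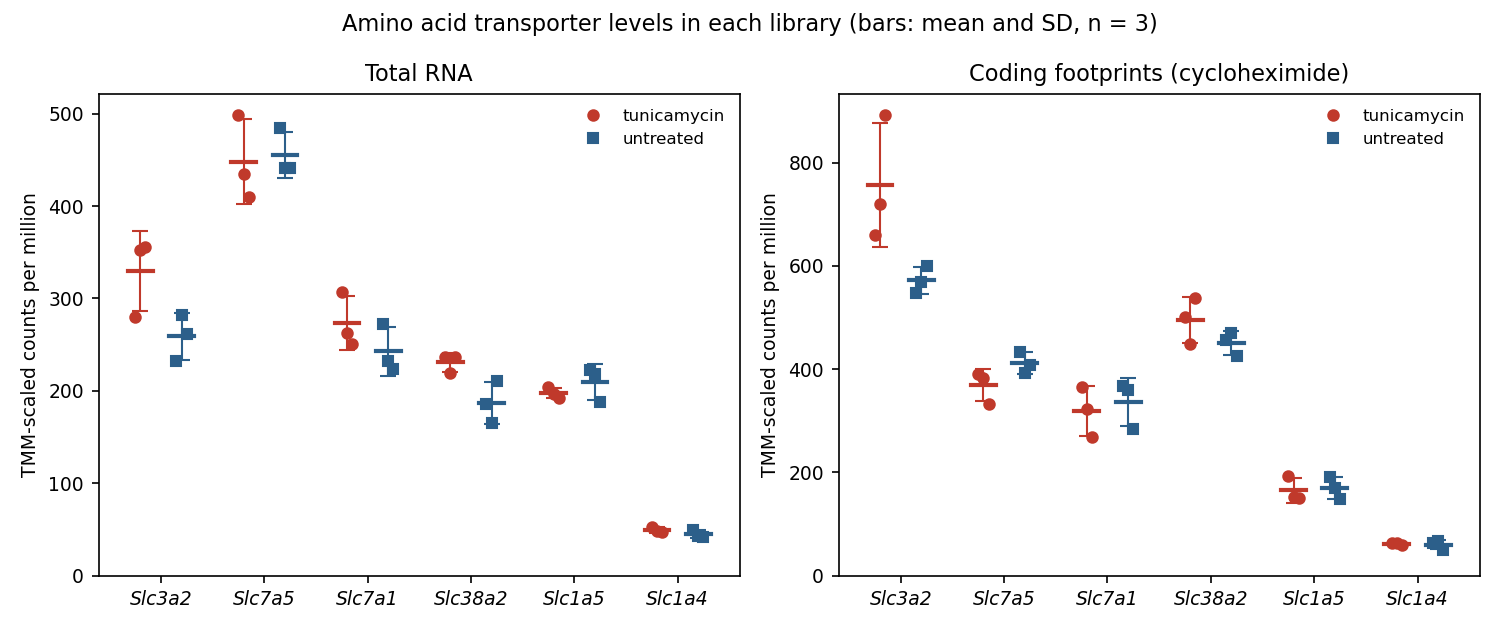
Level of each transporter in total RNA (left) and in coding footprints (right), in TMM-scaled CPM on a linear axis, with tunicamycin libraries as red circles and untreated libraries as blue squares; wide bars are means and error bars SDs of 3 libraries. Slc3a2 coding footprints are 659 to 892 CPM under tunicamycin and 547 to 599 CPM in untreated cells. Groups are also apart in Slc38a2 RNA and Slc7a5 footprints, and the share of all genes with groups apart was not counted. Levels are not divided by gene length, so heights do not compare genes.

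Coding footprints count ribosomes on the coding sequence and so join the amount of an mRNA with how much it is translated. None of the 6 passed, against a background of 2.58% of 9265 genes called (239), while 1542 genes had an unadjusted p under 0.05. The median change of the 6 was 0.01, against 0.00 over all genes. Slc3a2 came closest, with 659, 720 and 892 CPM under tunicamycin, against 547, 569 and 599 CPM in untreated cells. Every tunicamycin library was above every untreated library, but the share of all genes with groups apart in coding footprints was not counted. The change was 0.40 ± 0.10 (95% interval 0.18 to 0.63, adjusted p = 0.0529, edgeR), which misses the threshold narrowly. Slc3a2 passed in 6 of 15 alternatives. These were DESeq2 (adjusted p = 0.0266), no filter (0.00135), robust edgeR (0.0468), leader, coding and 3′ UTR reads summed (0.0293), and the fit without tunicamycin library 1 (0.00849). The last was edgeR with the replicate number as a block (0.00130), in which 522 of 9265 genes were higher and 363 lower. Without tunicamycin library 3, which had the highest value, the change was 0.27 (adjusted p = 0.288).

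Slc7a5, a light chain that Slc3a2 carries, had 391, 383 and 333 CPM of coding footprints under tunicamycin, against 434, 393 and 407 CPM in untreated cells. Each tunicamycin library was below every untreated library, and here too the share of all genes with groups apart was not counted. Its change was -0.16 ± 0.09 (95% interval -0.35 to 0.03, adjusted p = 0.403, edgeR) and did not pass. Read as a ratio within each library, coding footprints of Slc3a2 per footprint of Slc7a5 were 1.68, 1.88 and 2.68 under tunicamycin, against 1.26, 1.45 and 1.47 in untreated cells. The same ratio in RNA reads was 0.562, 0.812 and 0.868 under tunicamycin, against 0.480, 0.640 and 0.593 in untreated cells. The footprint ratio was higher in all tunicamycin libraries than in all untreated ones. The RNA ratios overlapped between groups, and in each same-numbered pair the tunicamycin library had the higher RNA ratio. This pair was set side by side after its values were seen and was not tested.

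Slc38a2 had 500, 449 and 537 CPM of coding footprints under tunicamycin, against 457, 470 and 425 CPM in untreated cells, and its change was 0.14 ± 0.09 (adjusted p = 0.483, edgeR). Slc7a1 had 365, 323 and 268 CPM under tunicamycin, against 367, 359 and 283 CPM in untreated cells (-0.08 ± 0.12, adjusted p = 0.812, edgeR). In both genes the groups overlapped. Slc1a5 had 193, 153 and 150 CPM under tunicamycin, against 191, 170 and 148 CPM in untreated cells, a change of -0.04 ± 0.11. For Slc1a4 the values were 63.6, 63.6 and 59.0 CPM under tunicamycin, against 62.6, 66.9 and 49.97 CPM in untreated cells, a change of 0.05 ± 0.11. The 95% interval of Slc1a5 ran from -0.28 to 0.21 and that of Slc1a4 from -0.19 to 0.30, and their groups overlapped.

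Translational efficiency, the ratio of coding footprints to RNA, was compared between treatments in 1 model of 12 libraries. None of the 6 transporters passed, against a background of 1.07% (109 of 10154 genes), and 1487 genes had an unadjusted p under 0.05. The median change was -0.12, against -0.02 over all genes. Slc3a2, with the largest differences in RNA and coding footprints, had a change in efficiency of 0.04 ± 0.16 (95% interval -0.28 to 0.37, adjusted p = 0.94, edgeR). Slc7a1 had -0.25 ± 0.17 (adjusted p = 0.533), Slc38a2 -0.18 ± 0.12 (0.551) and Slc7a5 -0.14 ± 0.12 (0.646), all by edgeR. Slc1a4 had -0.09 ± 0.15 and Slc1a5 0.04 ± 0.15. The interval of Slc7a1 was the widest and ran from -0.61 to 0.11. A miss of the threshold does not show that efficiency was equal.

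**Figure D2:**
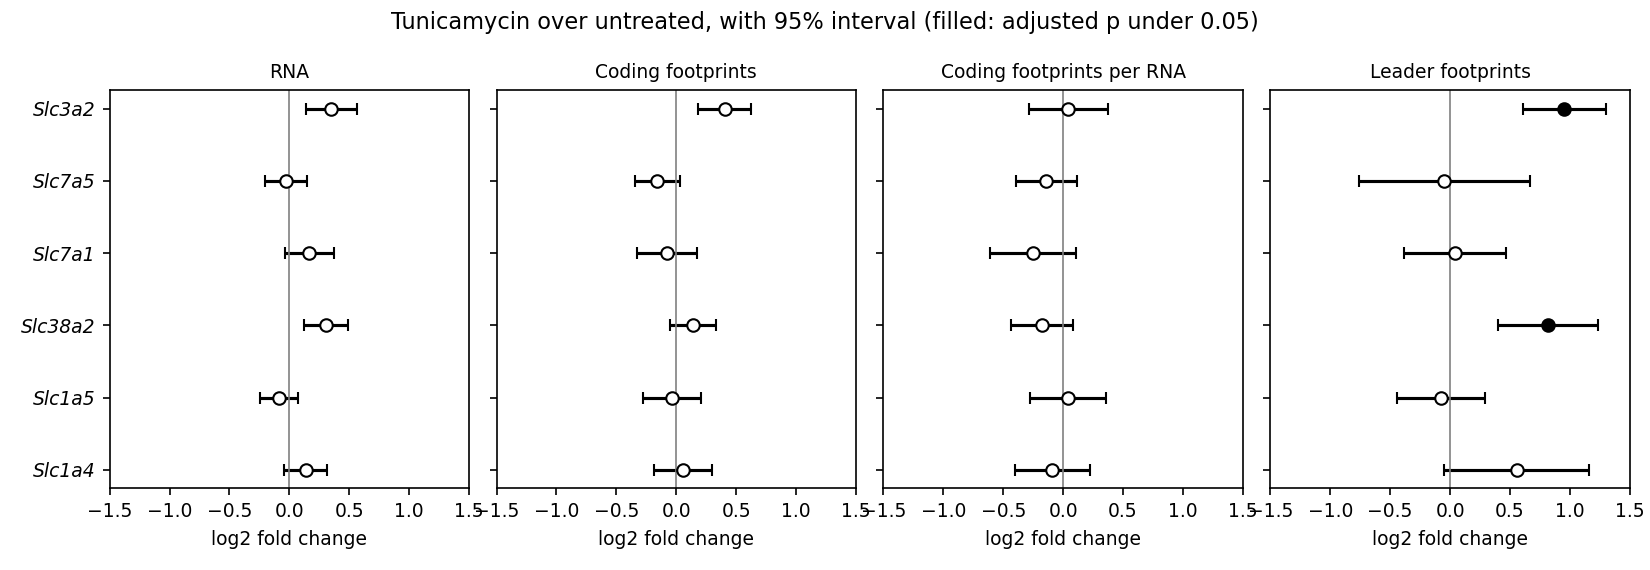
Log2 fold change of each transporter, tunicamycin over untreated, with its 95% interval, in RNA, coding footprints, coding footprints per RNA and leader footprints scaled among leaders (4 panels, 3 libraries a group). Filled points have an edgeR adjusted p under 0.05 and are Slc3a2 (0.95) and Slc38a2 (0.82) in leader footprints; all other points are open.

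The 5′ leader is the stretch of mRNA before the start codon, where ribosomes can translate upstream open reading frames. Its share of a gene's leader and coding footprints was higher in every tunicamycin library than in every untreated library for all 6 transporters. The same held for the sum over all genes, and 89.8% of all genes had a leader to coding ratio change above 0. How many single genes were apart in every library was not counted. In the test of the ratio of leader to coding footprints all 6 were called higher, against a background of 33.7% of 9236 genes called higher. That background includes genes with few leader reads. Only 4469 leaders, those of the 6 among them, passed the filter on low counts by themselves. The share called higher among those was not counted. For Slc3a2 the leader share was 11.7%, 13.3% and 14.1% under tunicamycin, against 5.94%, 4.03% and 5.44% in untreated cells. For Slc38a2 it was 3.89%, 5.66% and 8.06% under tunicamycin, against 2.30%, 1.72% and 1.96% in untreated cells. In neither gene did the groups overlap. For Slc3a2 these shares rest on 1671 leader reads under tunicamycin and 609 in untreated cells, and for Slc38a2 on 461 leader reads under tunicamycin and 180 in untreated cells.

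Shares depend on the length of a leader and are set only between treatments. Slc1a5 had 17.7%, 21.7% and 27.2% under tunicamycin, against 13.6%, 13.0% and 12.5% in untreated cells. Slc1a4 had 10.1%, 5.88% and 15.9% under tunicamycin, against 5.49%, 2.93% and 4.36% in untreated cells. Slc7a1 had 9.03%, 5.91% and 9.30% under tunicamycin, against 4.98%, 3.02% and 4.46% in untreated cells; in rat cells the leader of its mRNA is known for an internal ribosome entry site used under amino acid shortage. The groups did not overlap in any of these genes, although the lowest Slc1a4 and Slc7a1 tunicamycin libraries lay close to the highest untreated ones. Slc7a5 had 0.829%, 0.630% and 1.22% under tunicamycin, against 0.348%, 0.432% and 0.519% in untreated cells. Its shares rest on 48 leader reads under tunicamycin and 35 in untreated cells.

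The leaders of most genes moved in the same direction. Summed over all genes, the leader share was 7.86%, 7.94% and 10.4% under tunicamycin, against 5.16%, 4.07% and 5.47% in untreated cells. Beside the 33.7% of genes called higher in the ratio, 6 genes were called lower, and 89.8% had a change above 0. The median log2 change of the ratio was 1.23 over the 6 and 0.86 over all genes. Slc38a2 had the largest change of the 6 at 1.58 ± 0.29 (adjusted p = 8.18e-05, edgeR), at percentile 84.9 of all genes. Slc3a2 followed at 1.48 ± 0.26 (adjusted p = 4.17e-05, percentile 81.9) and Slc1a4 at 1.41 ± 0.36 (0.00224, percentile 79.6).

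The remaining ratios lay nearer the median of all genes: 1.04 ± 0.41 for Slc7a5 (adjusted p = 0.0431, edgeR), 1.02 ± 0.28 for Slc7a1 (0.00481) and 0.91 ± 0.27 for Slc1a5 (0.00716). Tunicamycin library 3 had the highest leader share of all genes, and without it 3 of the 6 passed. Those were Slc3a2 (1.41), Slc38a2 (1.28) and Slc7a1 (0.90), while Slc1a4 (0.98, adjusted p = 0.0812), Slc1a5 (0.70, 0.0696) and Slc7a5 (0.76, 0.236) did not. Slc7a5 also missed the threshold in 6 more of its 11 alternatives, and Slc1a4 missed it with limma voom (adjusted p = 0.0644).

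**Figure D3:**
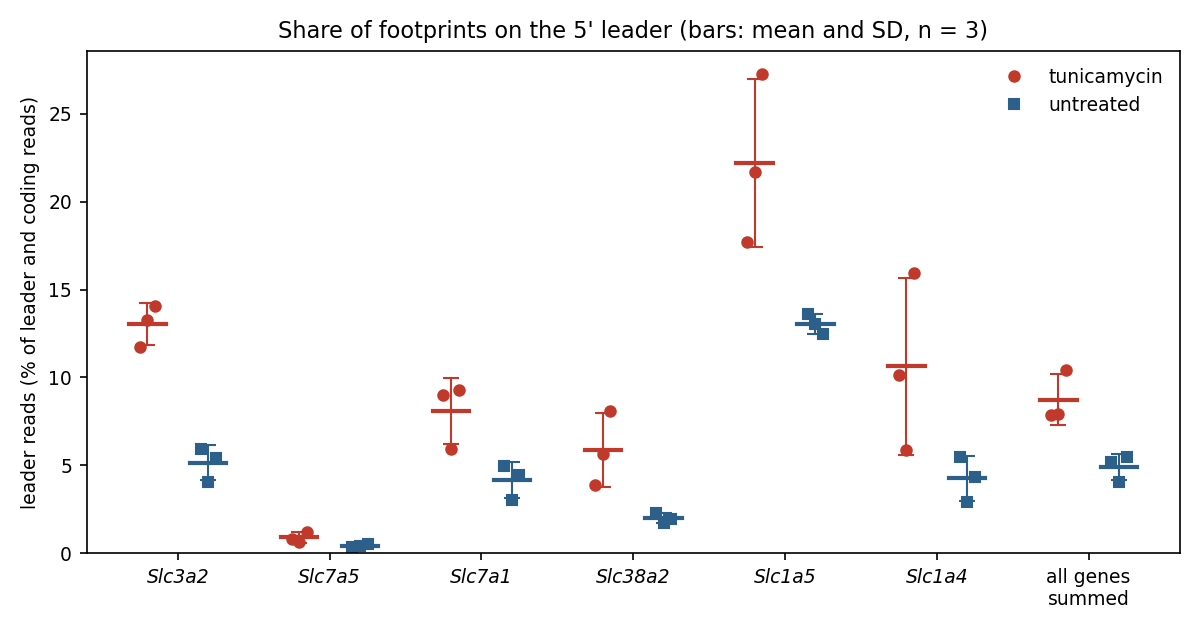
Leader footprints as a percent of leader and coding footprints for each transporter and for all genes summed, per cycloheximide library, with tunicamycin libraries as red circles and untreated libraries as blue squares; wide bars are means and error bars SDs of 3 libraries. The tunicamycin libraries lie above the untreated ones in all 6 genes and in the sum over all genes (7.86% to 10.4% under tunicamycin and 4.07% to 5.47% in untreated cells).

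To separate genes from that common rise, leader footprints were also scaled among leaders alone, which sets the typical leader near 0. Like coding footprints, these values still carry the amount of mRNA. On this scale 2 of the 6 transporters rose, against a background of 5.21% of 4469 leaders called higher and 4.77% lower. They were Slc3a2 and Slc38a2, which also had the largest RNA changes of the 6 (0.35 and 0.31), and leaders were not tested against RNA. Slc3a2 leaders had 1000, 1260 and 1261 CPM of leader reads under tunicamycin, against 624, 568 and 623 CPM in untreated cells, and the change was 0.95 ± 0.17 (adjusted p = 0.000457, edgeR). The lowest tunicamycin library was far above the highest untreated library. The call held in 14 of 14 alternatives, with changes between 0.92 and 1.05.

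Slc38a2 leaders had 231, 308 and 407 CPM under tunicamycin, against 194, 196 and 154 CPM in untreated cells, and the change was 0.82 ± 0.21 (adjusted p = 0.00927, edgeR). The groups did not overlap, but tunicamycin library 1 lay near the untreated values. Without tunicamycin library 3 the change was 0.60 and did not pass (adjusted p = 0.135). The other transporters did not pass: Slc1a4 had 0.56 ± 0.30 (adjusted p = 0.255), Slc7a1 0.04 ± 0.21, Slc7a5 -0.05 ± 0.35 and Slc1a5 -0.08 ± 0.18. Slc1a5, whose leader share had risen, had 474, 485 and 485 CPM of leader reads on this scale under tunicamycin, against 542, 605 and 381 CPM in untreated cells, and the tunicamycin values lay inside the untreated range.

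Footprints on 3′ UTRs were few. The ratio of 3′ UTR to coding footprints passed in none of the 6, against a background of 0.336% (31 of 9230 genes; 528 had an unadjusted p under 0.05). Slc38a2 had the largest change, 2.14 ± 0.81 (adjusted p = 0.498, edgeR), from 2, 5 and 5 reads under tunicamycin, against 3, 0 and 0 in untreated cells. The 3′ UTR share of Slc7a1 was 4.67 ± 0.448% under tunicamycin and 4.38 ± 0.918% in untreated cells (SD, n = 3), and its ratio changed by 0.10 ± 0.23.

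Harringtonine reads mark where ribosomes start. Every deposited position had 20 or more reads in sum over the libraries of at least 1 treatment, and 5 of the 7 transporters had such positions. Slc7a5 had none although its coding footprints averaged 390 CPM over 6 libraries. Of the 502 genes with at least that mean, 30 (5.98%) likewise had no position. All 21 positions lay inside the RefSeq gene. Distances count from the gene's or transcript's first base as 1 along the genome and include introns, so they are not positions in the mRNA.

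Slc3a2 had 3 positions. The furthest upstream, 283 bases into the gene at chromosome 19 base 8723087, held 7, 11 and 16 reads under tunicamycin, against 6, 5 and 12 in untreated cells. The other 2 lay 65 and 92 bases after the start of the RefSeq transcript whose promoter is given here, at 8713833 and 8713806. The first of these held 86, 32 and 42 reads under tunicamycin, against 39, 31 and 27 in untreated cells. The second held 46, 95 and 104 reads under tunicamycin, against 81, 55 and 75 in untreated cells. In 1 tunicamycin library (86 and 46 reads) the order of these 2 positions was the reverse of that in every other library.

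Slc7a1 had its main position at chromosome 5 base 148352438, with 70, 47 and 44 reads under tunicamycin, against 26, 29 and 34 in untreated cells. It is 1 of the 16 transporter positions that passed the filter, and the only one of them whose scaled levels did not overlap between groups (89.0 ± 17.4 CPM under tunicamycin and 61.6 ± 10.7 CPM in untreated cells, SD, n = 3). The share of all tested positions without overlap was not counted, so this does not set the position apart. The change was 0.53 ± 0.32 (adjusted p = 0.999, edgeR). The next position downstream, at 148352406, held 40, 9 and 3 reads under tunicamycin, against 13, 2 and 1 in untreated cells, and most of them came from 1 library in each group. The furthest upstream, at 148365237, held 16, 10 and 10 reads under tunicamycin, against 17, 14 and 5 in untreated cells.

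Slc38a2 had 5 positions, at 71, 72, 185, 919 and 990 bases from the start of the gene. The position at 185 bases held 27, 37 and 43 reads under tunicamycin, against 24, 34 and 20 in untreated cells. That at 71 bases held 25, 22 and 30 reads under tunicamycin, against 25, 32 and 21 in untreated cells, and that at 72 bases held 20, 19 and 30 reads under tunicamycin, against 20, 18 and 11 in untreated cells. At 919 bases there were 13, 8 and 10 reads under tunicamycin, against 7, 2 and 4 in untreated cells. At 990 bases there were 3, 7 and 11 reads under tunicamycin, against 0, 8 and 2 in untreated cells. The groups thus overlapped at 4 of the 5 positions in raw reads, all but the one at 919 bases, which did not pass the filter on low counts. That position and the one at 990 bases reached 20 summed reads only under tunicamycin (31 and 21, against 13 and 10 in untreated cells). Both may thus be listed only through the group where they are high. Slc1a5 had 8 positions, the most of the 5 genes, spread from 92 to 500 bases from its start, and its highest, at 389 bases, held 42, 24 and 25 reads under tunicamycin, against 22, 21 and 18 in untreated cells. Its other 7 positions held 4 to 28 reads per library under tunicamycin and 3 to 27 in untreated cells. Of these, the positions at 92 and 260 bases reached 20 summed reads only under tunicamycin (29 and 21, against 17 and 16 in untreated cells). Slc1a4 had 2 positions, at 101 and 236 bases, with sums of 52 and 35 reads under tunicamycin, against 30 and 33 in untreated cells.

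Summed per gene, harringtonine reads passed in none of the 5 transporters, against a background of 0.0272% (1 of 3681 genes; 133 had an unadjusted p under 0.05 and DESeq2 called 2). Slc7a1 had the largest change, with 126, 66 and 57 reads under tunicamycin, against 56, 45 and 40 in untreated cells (0.48 ± 0.30, adjusted p = 0.998, edgeR). Its position at 148352406 enters that sum with 52 reads under tunicamycin and 16 in untreated cells, and only the tunicamycin sum reached 20. Slc3a2 had 139, 138 and 162 reads under tunicamycin, against 126, 91 and 114 in untreated cells, a change of 0.10 ± 0.23. These raw reads carry the larger totals of the tunicamycin libraries, which the scaling removes. The changes of Slc1a4 (0.13), Slc38a2 (0.10) and Slc1a5 (0.07) were small too. Positions that reached 20 summed reads only under tunicamycin also enter the sums of Slc38a2 and Slc1a5. None of the 16 tested positions passed, nor did any of 5843 positions in all (background 0%; 211 had an unadjusted p under 0.05, and DESeq2 and robust edgeR called 1 each). Harringtonine reads against RNA also passed in none of the 5 (background 0% of 4535 genes; 375 had an unadjusted p under 0.05, DESeq2 called 56 and limma voom 1).

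**Figure D4:**
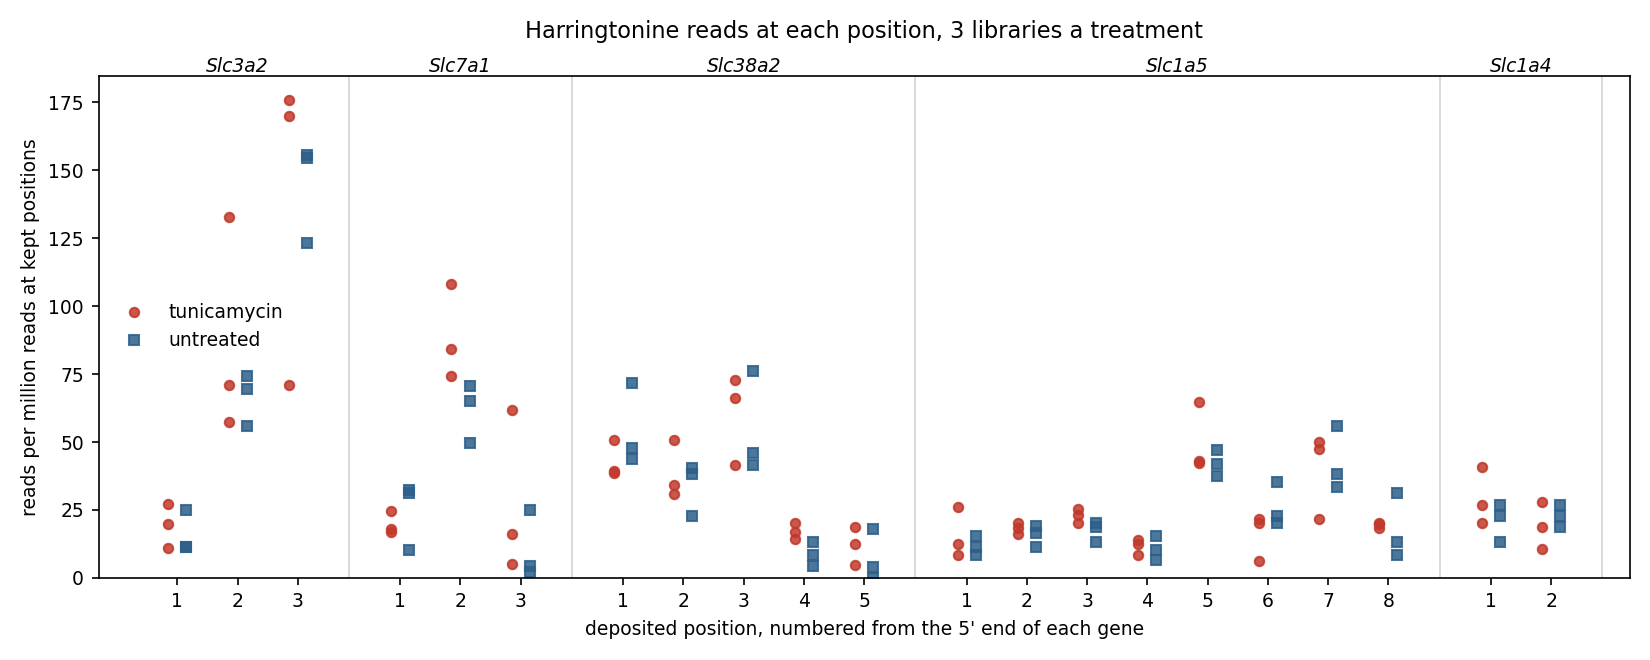
Harringtonine reads as CPM of the reads at kept positions (linear axis) at each deposited position of the 5 transporters that have any, numbered from the 5′ end of each gene, with 3 tunicamycin libraries as red circles and 3 untreated libraries as blue squares. All tunicamycin libraries lie above all untreated ones at the second position of Slc7a1 and the fourth of Slc38a2, and the groups overlap at the other positions. That Slc38a2 position reached 20 summed reads only under tunicamycin, so it may be listed only through the group where it is high.

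For comparison, other amino acid carriers and the ATF4 arm were read from lists. Of 35 other plasma membrane amino acid transporters, 14 were tested in RNA and 13 in coding footprints and efficiency, and none passed in any of these (medians 0.00, -0.02 and -0.01). Slc38a1, a glutamine carrier, had a coding footprint change of -0.16 ± 0.09 (adjusted p = 0.402, edgeR), and Slc7a8, another light chain of Slc3a2, -0.29 ± 0.18 (0.452). In the leader to coding ratio 5 of 13 rose, a share near the 33.7% of all genes: Slc16a10, Slc1a3, Slc38a1, Slc7a7 and Slc7a8. Without tunicamycin library 3 the calls of Slc16a10 (adjusted p = 0.142), Slc1a3 (0.0765) and Slc7a8 (0.0899) were lost. That of Slc38a1 held, and that of Slc7a7 was not followed through the alternatives. In leader footprints scaled among leaders none of the 6 tested passed.

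Of the lysosomal, Golgi and mitochondrial carriers, 18 were tested in RNA and 17 in coding footprints and efficiency, and none passed in any of them. The smallest p in RNA was that of Slc25a39, the mitochondrial glutathione carrier, with 216 ± 11.5 CPM under tunicamycin and 245 ± 10.6 CPM in untreated cells (SD, n = 3; log2 -0.18 ± 0.06, adjusted p = 0.32, edgeR). In the leader to coding ratio 5 of 17 rose (background 33.7%), and of these the call of Slc25a15, the mitochondrial ornithine carrier (adjusted p = 0.0446, edgeR), was lost in 6 of 11 alternatives. Slc25a22, a mitochondrial glutamate carrier, was the 1 of 7 whose leader footprints rose when scaled among leaders (background 5.21%; 0.91 ± 0.26, adjusted p = 0.0234, edgeR). That call was lost in 4 of 14 alternatives, with the highest adjusted p, 0.155, without tunicamycin library 3.

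Of 20 genes of the ATF4 arm and amino acid sensing, 4 rose in RNA (background 0.15%), 5 in coding footprints (2.58%) and 2 in efficiency (1.07%), and none fell in these. The list was chosen with earlier results of these data known, so its counts beside the background are a description. The other 16, 15 and 18 genes did not pass, and the median RNA change of the list was 0.08. In the leader to coding ratio 5 of 19 were called higher (background 33.7%) and 1, Atf4, lower; in leader footprints scaled among leaders 2 of 14 were higher (5.21%) and 2 lower (4.77%). Atf4, the transcription factor itself, had 344 ± 53.7 CPM of coding footprints under tunicamycin and 75.7 ± 2.16 CPM in untreated cells (SD, n = 3), a change of 2.18 ± 0.11 (adjusted p = 2.33e-08, edgeR). Its efficiency rose by 2.01 ± 0.14 (adjusted p = 4.33e-07), and its ratio of leader to coding footprints fell by 1.38 (± 0.26, 9.51e-05). Chac1, which degrades glutathione and is a target of ATF4, had 27.9 ± 6.46 CPM of RNA under tunicamycin and 3.81 ± 0.245 CPM in untreated cells, a change of 2.87 ± 0.17 (adjusted p = 1.80e-05, edgeR). In RNA the pseudokinase gene Trib3 rose by 0.88 ± 0.10 (adjusted p = 0.00789, edgeR), Ddit3, which encodes the transcription factor CHOP, by 0.85 ± 0.13 (0.042), and Atf3 by 0.92 ± 0.14 (0.042). These 3 calls were each lost when any 1 of RNA libraries 2 and 3 of either treatment was left out (highest adjusted p 0.0918 for Trib3, 0.270 for Ddit3 and 0.303 for Atf3), while that of Chac1 held in every alternative run. In coding footprints Ddit3 rose by 2.45 ± 0.23 (adjusted p = 5.45e-05, edgeR) and Chac1 by 2.04 ± 0.32 (0.00357), and both calls held in every alternative run. The coding call of Atf3 (adjusted p = 0.0451, edgeR) was lost in 7 of 14 alternatives and that of Trib3 (0.0296) in 4 of 15. Both were lost without tunicamycin library 3 (0.240 for Atf3 and 0.170 for Trib3). The efficiency call of Ddit3 (0.0252) was lost in 4 of 21, with a highest adjusted p of 0.0818, and both calls of Atf4 held in every alternative run. The changes of Slc3a2 (0.35) and Slc38a2 (0.31) in RNA stand beside these. They are the largest among the 6 tested of the 7 chosen transporters. Whether they differ from those of the ATF4 arm was not tested.

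As a description of likeness, Pearson's r of log2(CPM + 1), centred within each assay, was computed over the 12 RNA and cycloheximide libraries between each transporter and 8112 genes with at least 5 CPM in each assay. Slc3a2 was most like Psmc6 (r = 0.964), Vps16 (0.956) and Xbp1 (0.939). Slc38a2 was most like Ppwd1 (0.948), Mthfd1 (0.930) and Dhx40 (0.916), and Slc7a5 most like Stk24 (0.967), Ethe1 (0.949) and Sema4d (0.943). Slc7a1 stood nearest to Rev1 (0.971), Eml4 (0.964) and Slc4a7 (0.963), Slc1a4 to Exoc6 (0.944), Pafah1b1 (0.942) and Gtpbp4 (0.941), and Slc1a5 to Fam110a (0.899) and Gata1 (0.894). The same 12 libraries, with their treatment and depth, enter every r, so these r values are not independent evidence of a relation. Among the transporters themselves r ran from -0.85 between Slc3a2 and Slc7a5 to 0.82 between Slc1a4 and Slc7a1.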

How the data were processed

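The authors deposited raw counts of cycloheximide footprints per gene feature (5′ leader, coding sequence, 3′ UTR) with raw counts of RNA reads per gene, and read counts at single harringtonine positions. The submitters' processing notes name STAR, HTSeq and edgeR, with mm10 and GRCm38. Counting options, strand use and the rule behind the kept positions were not given in the sources used here, so where transcripts of a gene disagree on what is leader, the side a read was counted on is unknown. Of the 8464 harringtonine positions with a RefSeq gene, 98.7% lie inside it on GRCm38.p6.

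Whole tables were tested in R 4.3.3 with edgeR 4.0.16 (filterByExpr with a minimum count of 10 and total of 15, TMM scaling, glmQLFit, glmQLFTest, Benjamini-Hochberg adjustment); every adjusted p is from this test unless another tool is named. Scaling sets the typical gene near 0, so RNA and coding footprints do not show a change shared by every mRNA. Efficiency was the interaction of assay and treatment over 12 libraries; leader and 3′ UTR ratios were the interaction of feature and treatment within libraries. Harringtonine columns are tied to a treatment, and their numbers were not matched to other libraries. Each fit recovered known changes in simulated counts, planted only in features that were not low in counts. Those changes were much larger than the RNA and coding changes of the transporters. The simulated spread between libraries was fixed and not taken from the data, so power for small changes was not tested. No 2 replicate libraries agreed within sampling noise.

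The members and lists were chosen with earlier results of these data known. All 7 genes and every harringtonine position of theirs were named. In each list up to 4 genes with the smallest p were picked in RNA, coding footprints and efficiency, and not all of them are given here. Slc7a7 was not among those picked and is named for its leader to coding call. Same-numbered RNA libraries deviated together, with correlations of 0.599, 0.558 and 0.28. Tunicamycin RNA library 3 correlated almost as well with untreated library 2 (0.268). Alternatives changed scaling, filter, tool (DESeq2 1.42.0, limma 3.58.1 voom, robust edgeR) or block, or left out 1 library. 1 gene among those most like Slc1a5 is not reported here.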

Additional observations from a re-analysis of the deposited data

How the results depend on the processing

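Low read numbers limited the harringtonine positions, the 3′ UTR footprints and the leader of Slc7a5. Counts of all features that moved by over 1.5 times were as follows, and the cause was not tested. In RNA 122 genes passed with no filter, 75 with DESeq2 and 410 with the replicate block, against 16; of the transporters 2 passed with no filter and 2 with the block, against 0. In coding footprints 573 passed with no filter, 885 with the block and 377 with all features summed, against 239; 1 transporter, Slc3a2, passed in each of these and with DESeq2 and robust edgeR. DESeq2 called 250 leaders, against 446. In efficiency 403 passed with no filter, 365 with DESeq2, 766 with the block and 288 with features summed, against 109, with 0 transporters in each. With limma voom 2012 leader to coding ratios passed, against 3122, and 0 ratios of 3′ UTR to coding footprints, against 31. In harringtonine data DESeq2 called 2 genes, against 1, 1 position and 56 genes against RNA; robust edgeR called 1 position and limma voom 1 gene against RNA, against 0. In the cycloheximide libraries same-numbered coding deviations correlated at 0.426, 0.0997 and 0.326, weakly for number 2, so pairing by number remained unclear. The replicate block gave 559 leaders, 3331 leader to coding ratios and 32 ratios of 3′ UTR to coding footprints. Each cycloheximide library correlated best with its own number in coding deviations, as a hint from the data. By the numbers in the harringtonine column names, same-numbered deviations correlated at 0.481, 0.0922 and 0.170. Not every library correlated best with its own number, and whether those libraries pair by number remained unclear. A block by those numbers gave 3 genes, against 1, with 6 positions and 7 genes against RNA, against 0, and 0 transporters in each.

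With each library left out in turn, calls ranged from 3 to 26 in RNA (transporters 0 to 1), 58 to 431 in coding footprints (0 to 1), 147 to 582 in leaders (1 to 2), 17 to 299 in efficiency (0 to 0), 1403 to 2733 in leader to coding ratios (3 to 6), 12 to 35 in 3′ UTR ratios (0 to 0), and 0 to 2 in each harringtonine test (0 to 0). None of the named genes or positions that passed changed direction under any alternative run, with Slc7a7 not followed.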
